A study of Mus musculus with 12 samples.

Results

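The mRNAs described here encode the building blocks of microtubules and actin filaments. They comprised the α-tubulins Tuba1a, Tuba1b, Tuba1c and Tuba4a, the β-tubulins Tubb2a, Tubb4b, Tubb5 and Tubb6, and the cytoplasmic actins Actb and Actg1. The genes were chosen by their symbols, because tubulin mRNAs are regulated while they are translated and because Actb was a control mRNA of the study. All 10 were found among the 55376 genes listed, and each passed the filter of at least 1 CPM, a read count scaled to library size, in at least 3 libraries, which 12224 genes passed.

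The cells were 4T1, a cancer line from the mouse mammary gland, carrying the stably transfected pBICEP-CMV-2 vector under G418 selection. In mock cells the vector was empty, and in METTL7A1 cells it carried the full-length Mettl7a1 cDNA behind a CMV promoter. All cells received cycloheximide at 0.1 mg/ml for 5 min, which arrests ribosomes on mRNAs, and their lysates were spread over sucrose gradients. Gradient fractions 3 to 7, holding free ribosomal subunits and monosomes, gave the sub-polysomal RNA, and fractions 8 to 11, holding light and heavy polysomes, gave the polysomal RNA.

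Each of the 4 groups (mock sub-polysomal, mock polysomal, METTL7A1 sub-polysomal and METTL7A1 polysomal) had 3 libraries, with the letters A, B and C for mock cells and D, E and F for METTL7A1 cells, made from rRNA-depleted RNA with strand information. Median totals were 3608679 and 6033575 counts in the mock sub-polysomal and polysomal groups, and 5004430 and 6436665 counts in the METTL7A1 groups. The mock sub-polysomal library A was the shallowest, with 1817520 counts, where 3 counts equal 1.65 CPM of the plain total. That total was also used for the filter, whereas the CPM given from here on are relative to the total multiplied by a TMM factor, which lay between 0.806 and 0.977 in the sub-polysomal and between 1.11 and 1.23 in the polysomal libraries. The study describes its gradient profiles of these cells as typical of repeated fractionations of biological replicates, but the labels do not say whether the library letters mark separate cultures, so p-values measure only the spread between these samples, which may be technical.

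Tubulin is a dimer of α- and β-tubulin, and the dimers assemble into microtubules. Animal cells adjust tubulin synthesis to the amount of unassembled dimer by degrading tubulin mRNAs during translation: the factor TTC5 recognizes the first residues of the nascent tubulin as they leave the ribosome and, through SCAPER, recruits the CCR4-NOT deadenylase. Actb and Actg1 encode the β- and γ-actin of non-muscle cells, whose transcription responds to the pool of free actin through MRTF and SRF.

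Because recognition by TTC5 depends on the first residues encoded, the start of the coding sequence is shown for 9 members, 30 bases each, from GRCm38/mm10 with the GENCODE vM21 annotation. Capitals mark codons 2 to 4, which follow the start codon. Tuba1a (chr15:98951665-98953453), Tuba1b (chr15:98933169-98934335) and Tuba4a (chr1:75217408-75219195) lie on the minus strand and Tuba1c (chr15:99030422-99034120) on the plus strand, and in these 4 genes the bases come from 2 exons, so the coordinates span an intron. Tubb2a (chr13:34077900-34077929), Tubb4b (chr2:25224561-25224590), Tubb5 (chr17:35838024-35838053), Actb (chr5:142905657-142905686) and Actg1 (chr11:120348062-120348091) lie on the minus strand and the bases come from 1 exon. Among the 4 α-tubulins, 3 had the same bases in codons 2 to 4, whereas the β-tubulins each had their own, as did the actins. These are differences in bases, and the encoded residues were not compared.
Tuba1a: atgCGTGAGTGCatctccatccatgttggc
Tuba1b: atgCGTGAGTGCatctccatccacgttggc
Tuba1c: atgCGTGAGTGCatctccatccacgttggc
Tuba4a: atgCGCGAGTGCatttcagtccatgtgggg
Tubb2a: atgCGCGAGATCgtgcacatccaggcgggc
Tubb4b: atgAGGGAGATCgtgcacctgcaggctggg
Tubb5: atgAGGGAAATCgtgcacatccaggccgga
Actb: atgGATGACGATatcgctgcgctggtcgtc
Actg1: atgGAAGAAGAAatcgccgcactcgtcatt

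Over the whole coding sequence, Tuba1a and Tuba1b were identical at 98.3% of aligned bases, Tuba1b and Tuba1c at 97.9%, and Tuba1a and Tuba1c at 97.1%. Tuba4a was further from them, at 84.7% to 85.3%, and the β-tubulins were identical to each other at 80.2% to 84.6%. Actb and Actg1 shared 88.7% of bases. Counts of near-identical genes are uncertain, as the sources used here do not say how reads matching several genes were handled. In Tuba1b, 83.1% of the 50-base windows of the exons also occurred in another annotated gene, followed by Tuba1a (75.5%), Tuba1c (61.0%), Actg1 (56.7%), Tubb4b (55.5%), Tubb2a (49.6%) and Tuba4a (48.8%). For Tuba1a and Tuba1b the gene most often sharing windows was Tuba1c, and for Tuba1c it was Tuba1b. Actb shared 14.2% of its windows and Tubb5 0.115%, while none of the Tubb6 windows occurred in another gene. The mRNAs of the mitochondrial genome were looked at for the same, after their counts had been seen. In mt-Atp6, mt-Co2, mt-Co3, mt-Nd3 and mt-Nd4l, 98.0% to 100.0% of the windows occurred in a gene outside that genome, and they had 0 counts in all libraries (mt-Co2 had 1), whereas mt-Cytb and mt-Nd1, with none, had 846753 and 404973 counts. In mt-Co1 and mt-Nd4 51.1% and 62.2% were shared, with 410636 and 150654 counts, and mt-Atp8 had 0 counts with no such window. How far reads from shared windows were missing from the tubulin and actin counts was not tested. The sharing partner of Tuba4a was Stk16, a kinase gene on the opposite strand that covers 48.6% of the Tuba4a exon bases. Stk16 had 8047 counts over all libraries and Tuba4a 16377, and reads of the overlap cannot be told apart where counting ignored the strand, which is not stated. On the same strand, the gene Gm49450 covers 26.2% of the Tuba1a and 24.4% of the Tuba1b exon bases, with 0 counts over all libraries. How reads of that overlap were counted is not stated, and its effect on Tuba1a and Tuba1b was not tested.

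**Figure D1:**
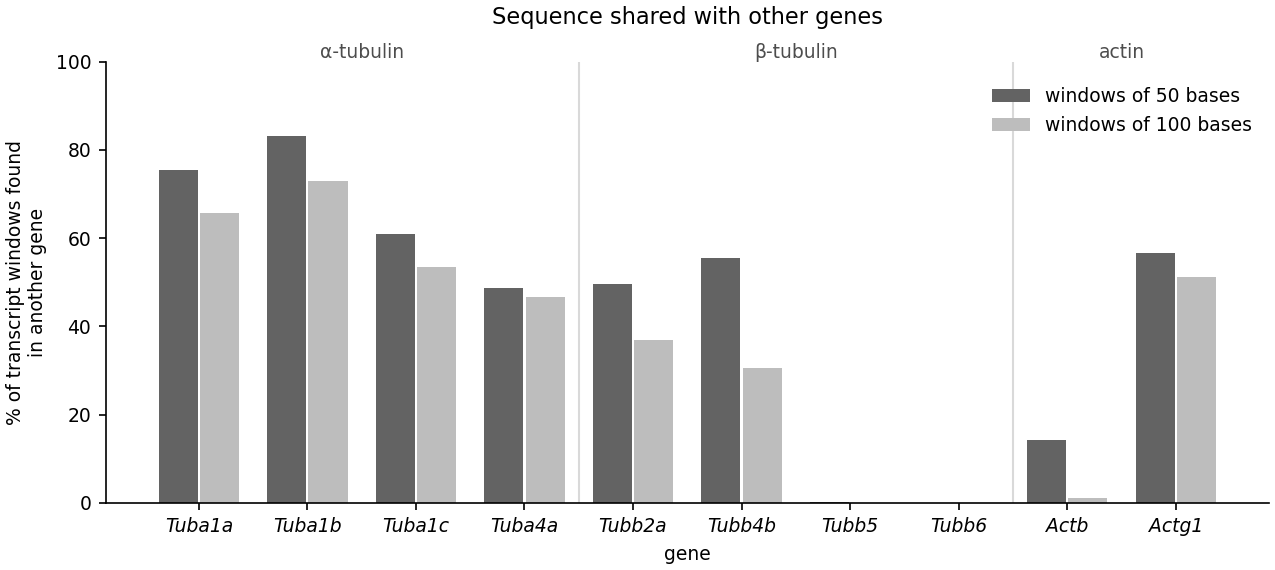
Percent of the windows of each gene's exons that also occur in another annotated gene, with 1 bar for windows of 50 bases and 1 for windows of 100 bases. Tuba1b had the highest share, 83.1% at 50 bases and 73% at 100 bases, and Tubb6 had 0 at both.

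Mettl7a1 was counted 4 to 24 times in the mock libraries and 989 to 2436 times in the METTL7A1 libraries, as the labels state. Of 8 epithelial markers, 7 passed the filter, and their summed level lay between 3052 and 6595 CPM, with Krt7 the most abundant (795 to 1913 CPM) and Krt5 at 0 counts in all libraries. Summed fibroblast markers reached 6.01 CPM at most (Pdgfra the most abundant, with Col1a2, Col3a1, Lum and Pdgfrb at 0 counts), and smooth muscle markers 0.642 CPM (Cnn1, with Myh11 and Des at 0). Leukocyte markers reached 22.5 CPM, nearly all from Cd68, with Cd3e and Lyz2 at 0 counts. Neuron markers reached 15.8 CPM, nearly all from Map2, and endothelial markers 0.822 CPM, with Kdr and Vwf at 0. The muscle actins Acta1, Acta2, Actc1 and Actg2 had at most 3 counts in any library, and the neuronal β-tubulin Tubb3 at most 2.

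Actb was the most abundant member in every group and ranked 54th of the 12224 genes by its mean over all libraries per kb of exon. Its CPM per kb was 1574 ± 165 (SD, n = 3) in mock sub-polysomal RNA, 1665 ± 108 in mock polysomal RNA, 1315 ± 81.9 in METTL7A1 sub-polysomal RNA and 1554 ± 120 in METTL7A1 polysomal RNA. Tubb5 came next in all groups, with 447 ± 30.1, 790 ± 68.7, 509 ± 37.5 and 837 ± 75.3 CPM per kb, and its libraries did not overlap with those of Actb. Tubb2a was the lowest member everywhere, between 13.1 and 18.8 CPM per kb on average, and also apart from its neighbour. The order in between depended on the group. It also rests on how reads of shared windows were counted, which is not stated. In mock sub-polysomal RNA it ran from Tuba1b (213 CPM per kb) over Tubb6, Tubb4b, Tuba1c, Actg1 and Tuba1a to Tuba4a (87.6 CPM per kb), and the libraries of Tubb6 and Tubb4b overlapped, as did those of each neighbouring pair from Tuba1c to Tuba4a. In mock polysomal RNA Tubb6 (195 CPM per kb) led this middle range, and Tubb6, Tubb4b, Tuba1b and Actg1 each overlapped with the next, followed by Tuba1c, Tuba4a and Tuba1a without overlap. In METTL7A1 sub-polysomal RNA the order was Tuba1b, Tubb6, Tuba1c, Tuba4a, Tubb4b, Tuba1a and Actg1, where only Tuba4a and Tubb4b overlapped. METTL7A1 polysomal RNA had the order Tubb6, Tuba1b, Tubb4b, Tuba1c, Actg1, Tuba4a and Tuba1a, where only Tuba1b and Tubb4b overlapped. All members together made up 0.538% ± 0.0377 and 0.846% ± 0.0798 of the counts in the mock sub-polysomal and polysomal groups, and 0.491% ± 0.00196 and 0.827% ± 0.0732 in the METTL7A1 groups. With TMM factors the pools were closer, at summed levels of 5903 ± 501 and 7069 ± 536 CPM in mock and 6046 ± 46.7 and 7359 ± 599 CPM in METTL7A1 cells.

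**Figure D2:**
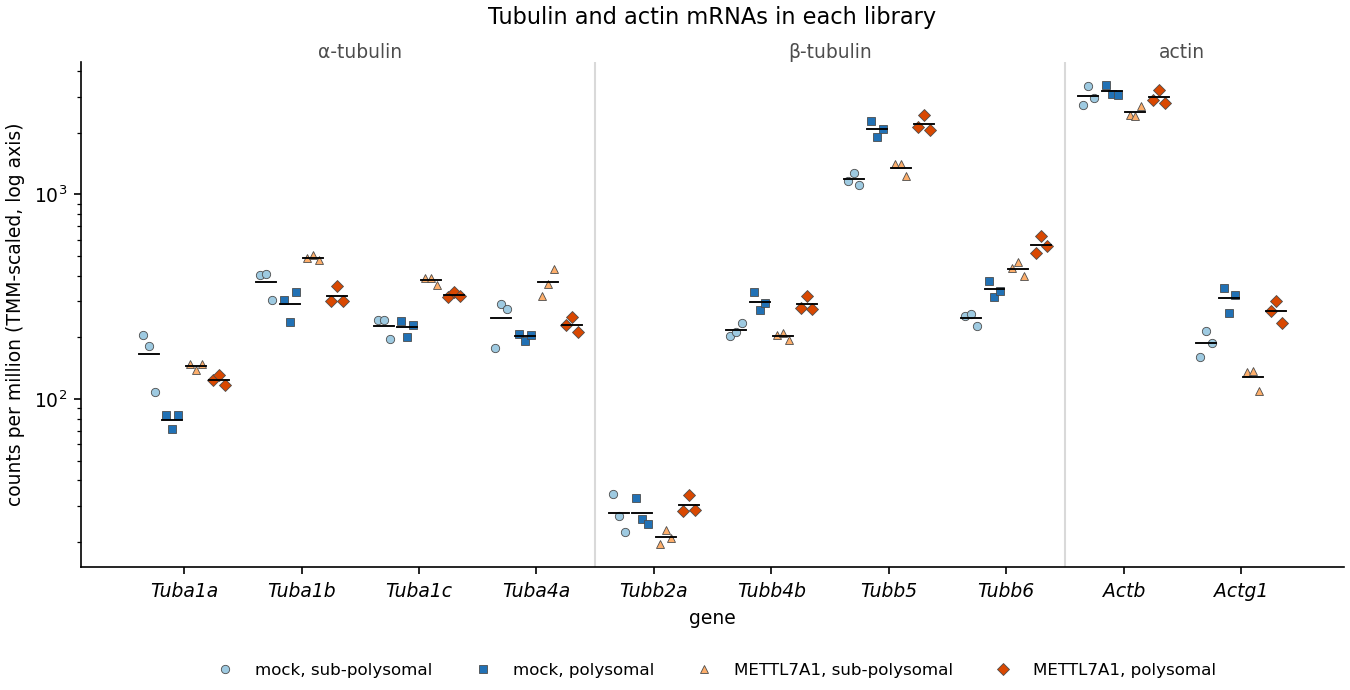
CPM of each member in each of the 12 libraries on a log axis, coloured by group, with a line at the mean of the 3 libraries of a group. Actb and Tubb5 lie above the other members in every group, and Tubb2a lies below them.

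Polysomal was first compared with sub-polysomal RNA within each genotype, to see on which side of the gradient the tubulin and actin mRNAs were relatively enriched. TMM factors are set so that most genes do not change between libraries, so a log2 change between pools is relative to the other mRNAs and does not give the fraction of a message on polysomes. The libraries hold bulk RNA, so a change in the number of cells that contain an mRNA and a change in its amount per cell cannot be told apart. Genes were called where the adjusted p was below 0.01 and a log2 change beyond 1.5, and "rose" or "fell" is used at an adjusted p below 0.05 with no limit on the change. In mock cells 0 of 10 members were called, against 7.55% of all tested genes. Of the 10, 4 rose (23.3% of all genes) and 1 fell (23.7% of all genes), and the libraries of both pools did not overlap for 5 members (51.9% of all genes). METTL7A1 cells also had 0 of 10 called (12.1% of all genes), with 5 risen (30.0%), 2 fallen (29.3%) and all 10 without overlap (66.8%).

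The α-tubulins had log2 changes to the polysomal pool below 0 in both genotypes, which for Tuba1c depended on the setting. Tuba1a, which is abundant in developing neurons, had 207, 182 and 108 CPM in the mock sub-polysomal libraries A, B and C and 83.2, 71.1 and 83.3 CPM in the polysomal libraries. In METTL7A1 cells it had 148, 138 and 148 CPM in the sub-polysomal libraries D, E and F and 124, 132 and 117 CPM in the polysomal libraries. The mock sub-polysomal library C was the lowest of its group, but each sub-polysomal library lay above every polysomal library of the same genotype. Tuba1a fell in mock cells by 1.05 on the log2 scale (SE 0.18, adjusted p 0.000114, edgeR's quasi-likelihood test), while its log2 change in METTL7A1 cells was -0.22 (SE 0.18, adjusted p 0.287), -0.46 when scaled to Actb and -0.079 with GC offsets. Tuba1b, a widely expressed α-tubulin, had 405, 406 and 305 CPM in mock sub-polysomal RNA against 305, 239 and 335 CPM in polysomal RNA, and 489, 503 and 477 CPM against 300.0, 357 and 302 CPM in METTL7A1 cells. The mock pools overlapped and the METTL7A1 pools did not. Its log2 change was -0.34 in mock cells (SE 0.16, adjusted p 0.0855, edgeR's quasi-likelihood test), where it passed with DESeq2 (adjusted p 0.0304) or leaving out mock replicate C (log2 change -0.58, adjusted p 0.0197). Without mock replicate B it was -0.15 (adjusted p 0.567), and over all alternatives the adjusted p lay between 0.0197 and 0.567. Tuba1b fell in METTL7A1 cells by 0.62 (SE 0.16, adjusted p 0.00279, edgeR's quasi-likelihood test), with a log2 change of -0.34 under GC offsets.

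Tuba4a, whose product is the α-tubulin made without a carboxy-terminal tyrosine, had 178, 292 and 277 CPM in the mock sub-polysomal libraries and 208, 193 and 206 CPM in the polysomal libraries. Library A, the shallowest, was the low one and made the pools overlap. The METTL7A1 libraries were apart, with 320, 366 and 432 CPM in sub-polysomal and 229, 252 and 213 CPM in polysomal RNA. The log2 change was -0.31 in mock cells (SE 0.17, adjusted p 0.151, edgeR's quasi-likelihood test) and -0.52 without the mock sub-polysomal library A (adjusted p 0.0114), an alternative chosen after seeing the data, and -0.55 without mock replicate A (adjusted p 0.0104). Without mock replicate B it was -0.15 (adjusted p 0.614), and over all alternatives the adjusted p ranged from 0.0104 to 0.614. In METTL7A1 cells Tuba4a fell by 0.69 (SE 0.17, adjusted p 0.00199, edgeR's quasi-likelihood test), and without METTL7A1 replicate F the log2 change was -0.51 (adjusted p 0.0515, with 0.000119 to 0.0515 over all alternatives). Stk16, which was looked at after its overlap with Tuba4a had been seen, fell with log2 changes of -1.18 in mock and -1.30 in METTL7A1 cells, and its part in the Tuba4a values was not tested. Tuba1c, another widely expressed α-tubulin, had log2 changes of -0.021 in mock and -0.24 in METTL7A1 cells (adjusted p 0.913 and 0.142, edgeR's quasi-likelihood test). In METTL7A1 cells it passed with DESeq2 (-0.28, adjusted p 0.0312) and when scaled to Actb (-0.48, adjusted p 0.0192), while GC offsets turned it to 0.10 (adjusted p 0.0192 to 0.505 over all alternatives). The mock value turned to 0.034 with GC offsets or with no filter and to 0.10 without mock replicate B. The median over the 4 α-tubulins was -0.32 in mock and -0.43 in METTL7A1 cells, beside 0.054 and 0.058 over all genes. All 4 stayed below 0 under each scaling, except Tuba1c at 0.019 in mock cells with upper-quartile factors.

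The β-tubulins had log2 changes above 0 in both genotypes, except for Tubb2a in mock cells under some scalings. Tubb5, the main β-tubulin of these cells, had 1169, 1271 and 1114 CPM in the mock sub-polysomal libraries and 2280.4, 1918 and 2078 CPM in the polysomal libraries. In METTL7A1 cells it had 1405, 1404 and 1233 CPM in sub-polysomal and 2140.4, 2444 and 2068 CPM in polysomal RNA. Every polysomal library lay above every sub-polysomal one in both genotypes. Tubb5 rose by 0.82 in mock cells (SE 0.16, adjusted p 0.000324) and by 0.72 in METTL7A1 cells (SE 0.16, adjusted p 0.000669), both by edgeR's quasi-likelihood test, and the latter was 0.47 when scaled to Actb. Tubb4b, a β-tubulin that is also a main component of cilia, rose by 0.46 in mock cells (SE 0.14, adjusted p 0.00932) and by 0.52 in METTL7A1 cells (SE 0.14, adjusted p 0.00295, edgeR's quasi-likelihood test). The mock log2 change was 0.29 without mock replicate A (adjusted p 0.0763) and 0.37 when scaled to Actb (adjusted p 0.0656), and the METTL7A1 change when scaled to Actb was 0.27 (adjusted p 0.154). Over all alternatives the adjusted p of Tubb4b lay between 0.00175 and 0.0763 in mock and between 5.27e-05 and 0.154 in METTL7A1 cells.

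Tubb6, a divergent β-tubulin whose excess destabilizes microtubules, had 254, 262 and 228 CPM in mock sub-polysomal RNA and 379, 316 and 336 CPM in mock polysomal RNA. In METTL7A1 cells it had 437, 465 and 399 CPM against 518, 625 and 563 CPM. The pools were apart in both genotypes. Tubb6 rose by 0.47 in mock (SE 0.14, adjusted p 0.0111) and by 0.39 in METTL7A1 cells (SE 0.14, adjusted p 0.0239, edgeR's quasi-likelihood test). These changes did not pass when scaled to Actb (0.38 with adjusted p 0.0709, and 0.14 with adjusted p 0.492). The mock change also failed the test without mock replicate C (0.43, adjusted p 0.08), and the METTL7A1 change without METTL7A1 replicate E (0.37, adjusted p 0.124) or F (0.34, adjusted p 0.131), with ranges over all alternatives of 0.0016 to 0.08 and 9.34e-05 to 0.492. GC offsets raised the METTL7A1 change of Tubb6 to 0.75. Tubb2a, a β-tubulin typical of neurons, had 59 to 264 counts per library. Its log2 change was 0.039 in mock cells (SE 0.17, adjusted p 0.867, edgeR's quasi-likelihood test) and turned negative with RLE factors, DESeq2 or Actb scaling, and to -0.029 when mock replicate C was left out. Tubb2a rose in METTL7A1 cells by 0.52 (SE 0.17, adjusted p 0.0134, edgeR's quasi-likelihood test), but did not pass when scaled to Actb (0.27, adjusted p 0.215) or without METTL7A1 replicate D (0.52, adjusted p 0.0578) or E (0.49, adjusted p 0.0851), with adjusted p from 0.000993 to 0.215 over all alternatives, and was 0.79 with GC offsets. The median over the 4 β-tubulins was 0.47 in mock and 0.52 in METTL7A1 cells. With the exception of Tubb2a in mock cells under the scalings just named, all 4 were above 0 in both genotypes under each scaling.

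Of the actins, Actb did not pass the test between the pools of either genotype. In mock cells it had 2747, 3368 and 2953 CPM in the sub-polysomal and 3436, 3085 and 3068 CPM in the polysomal libraries, and in METTL7A1 cells 2441, 2427 and 2706 CPM against 2907, 3244 and 2803 CPM. The mock pools overlapped, and the METTL7A1 polysomal libraries all lay above the sub-polysomal ones. Its log2 change was 0.080 in mock (95% interval -0.26 to 0.42, adjusted p 0.706) and 0.24 in METTL7A1 cells (95% interval -0.096 to 0.58, adjusted p 0.205, edgeR's quasi-likelihood test), and the mock value was -0.082 without mock replicate A and -0.013 without the mock sub-polysomal library A. Actg1 had 160, 216 and 189 CPM in mock sub-polysomal RNA and 349, 265 and 321 CPM in mock polysomal RNA, and 136, 137 and 109 CPM against 268, 302 and 236 CPM in METTL7A1 cells. Its pools were apart in both genotypes, and it rose by 0.72 in mock (SE 0.16, adjusted p 0.00113) and by 1.08 in METTL7A1 cells (SE 0.16, adjusted p 1.66e-05, edgeR's quasi-likelihood test). Scaling every library to its Actb count moved the median of all genes to -0.18 in the METTL7A1 pool comparison, and upper-quartile factors moved it to 0.12. Of all genes that changed in that comparison, 50.6% rose, and 33.6% when scaled to Actb.

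**Figure D3:**
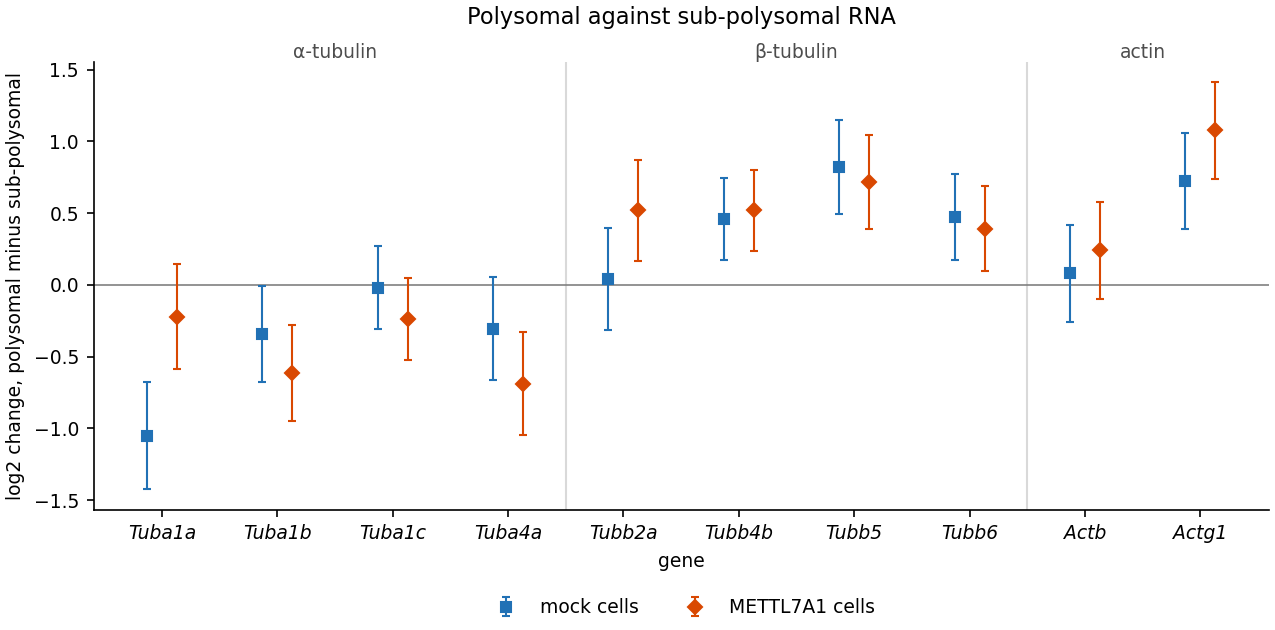
Log2 change from sub-polysomal to polysomal RNA for each member in mock and METTL7A1 cells, with 95% intervals from edgeR's fit and n = 3 libraries per group. The α-tubulins lie below 0, and the β-tubulins and Actg1 lie above 0. Tuba1c is above 0 with GC offsets in both genotypes. In mock cells Tuba1c is also above 0 with upper-quartile factors, with no filter and without mock replicate B. Tubb2a in mock cells is below 0 with RLE factors, DESeq2 and Actb scaling, and without mock replicate C.

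The balance of α- and β-tubulin mRNA within a library does not depend on how libraries are scaled to each other. The ratios were computed after the values had been seen. The size of a ratio also rests on how reads of shared windows were counted, which is not stated. Such windows made up more of Tuba1a, Tuba1b, Tuba1c and Actg1 than of Tubb5, Tubb6 and Actb. Their effect on the ratios was not tested. Summed β-tubulin over summed α-tubulin, in counts per kb, was 1.38, 1.39 and 1.65 in mock sub-polysomal RNA and 3.14, 3.14 and 2.75 in mock polysomal RNA. In METTL7A1 cells it was 1.37, 1.36 and 1.20 in the sub-polysomal and 2.69, 2.80 and 2.72 in the polysomal libraries. All polysomal libraries were above all sub-polysomal libraries. The means differed by 1.54 in mock and by 1.43 in METTL7A1 cells (exact permutation p 0.1 in each, the smallest possible with 3 against 3 libraries, two-sided). Between genotypes, the polysomal ratios overlapped (exact permutation p 0.2), and in sub-polysomal RNA the METTL7A1 libraries lay below the mock libraries, 1.31 ± 0.0954 against 1.47 ± 0.151 (SD, n = 3, exact permutation p 0.1), a difference of -0.16 that was -0.076 without mock replicate C. The ratio of Actb to Actg1 was 16.4 ± 0.929 in mock sub-polysomal and 10.5 ± 1.15 in mock polysomal RNA, and 20.5 ± 4.13 and 11.3 ± 0.633 in the METTL7A1 pools (SD, n = 3, exact permutation p 0.1 between the pools of either genotype). Library F set most of the spread in METTL7A1 sub-polysomal RNA, with a ratio of 25.2, beside 18.2 and 17.9 in libraries D and E.

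METTL7A1 cells were then compared with mock cells within each pool, to see which mRNAs differed with the transfected gene. The 2 genotypes are separate stable transfectants, so an effect of METTL7A1 and a difference between the cell populations cannot be told apart. The comparisons within pools use the same libraries as those between pools and are given side by side. In polysomal RNA 0 of 10 members were called (2.13% of all genes), 3 rose (9.69% of all genes) and 0 fell (8.28%), and 4 were without overlap (36.6%). Sub-polysomal RNA had 0 of 10 members called (2.76%), 3 that rose (16.8%), 1 that fell (14.5%) and 6 without overlap (43.9%).

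Tubb6, at chromosome 18, 67390717 to 67402749 on the plus strand, exceeded its mock level in either pool of METTL7A1 cells. Its METTL7A1 libraries, given above, lay at 399 CPM or more in sub-polysomal RNA, where no mock library exceeded 262 CPM, and at 518 CPM or more in polysomal RNA, where no mock library exceeded 379 CPM. The log2 change was 0.73 in polysomal RNA (SE 0.14, adjusted p 0.00144) and 0.81 in sub-polysomal RNA (SE 0.14, adjusted p 0.000388, edgeR's quasi-likelihood test), and Tubb6 rose in both under each alternative run. GC offsets lowered the sub-polysomal change to 0.41 (adjusted p 0.0301, with 3.7e-09 to 0.0301 over all alternatives). Tuba1c had 244, 243 and 197 CPM in mock and 392, 392 and 360 CPM in METTL7A1 sub-polysomal RNA. In polysomal RNA it had 241, 202 and 231 CPM in mock and 314, 335 and 321 CPM in METTL7A1 cells. No mock library reached a METTL7A1 library in either pool. Tuba1c rose by 0.53 in polysomal RNA (SE 0.14, adjusted p 0.0116) and by 0.74 in sub-polysomal RNA (SE 0.14, adjusted p 0.000597, edgeR's quasi-likelihood test). The polysomal change did not pass without METTL7A1 replicate E (0.50, adjusted p 0.0811) or mock replicate B (0.46, adjusted p 0.0681), and lay between 0.000213 and 0.0811 in adjusted p over all alternatives. The sub-polysomal change was 0.37 with GC offsets (adjusted p 0.0439, with 3.1e-08 to 0.0439 over all alternatives).

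Tuba1a rose in polysomal RNA by 0.65 (SE 0.18, adjusted p 0.0146, edgeR's quasi-likelihood test), and did not pass without METTL7A1 replicate D (0.65, adjusted p 0.0538) or E (0.61, adjusted p 0.0913) or mock replicate B (0.58, adjusted p 0.0704), with adjusted p from 0.00183 to 0.0913 over all alternatives. Its log2 change in sub-polysomal RNA was -0.18 (SE 0.18, adjusted p 0.469, edgeR's quasi-likelihood test), -0.016 without mock replicate A, -0.42 without mock replicate C, and 0.069 when scaled to Actb. Tuba4a rose in sub-polysomal RNA by 0.58 (SE 0.17, adjusted p 0.0157, edgeR's quasi-likelihood test). This call was lost without METTL7A1 replicate E (0.59, adjusted p 0.0575) or F (0.46, adjusted p 0.0888), without mock replicate A (0.37, adjusted p 0.0594) and without the mock sub-polysomal library A (0.37, adjusted p 0.0918), the range over all alternatives being 0.000833 to 0.0918. Its log2 change in polysomal RNA was 0.19 (adjusted p 0.475, edgeR's quasi-likelihood test), and Stk16 had 0.31 in sub-polysomal and 0.19 in polysomal RNA. When scaled to Actb, the sub-polysomal change of Stk16 was 0.58 and passed (adjusted p 0.0491, edgeR's quasi-likelihood test). Tuba1b had log2 changes of 0.40 in sub-polysomal RNA (adjusted p 0.0652, edgeR's quasi-likelihood test) and 0.12 in polysomal RNA. The former passed with DESeq2 (adjusted p 0.0382), limma-voom (adjusted p 0.0486), Actb scaling (0.66, adjusted p 0.00906) and without mock replicate A (0.44, adjusted p 0.0434), but was 0.094 with GC offsets (adjusted p 0.676, with 0.00906 to 0.676 over all alternatives), and the latter was -0.0016 without mock replicate B. The 4 α-tubulins had a median of 0.36 in the polysomal and 0.49 in the sub-polysomal comparison, beside -0.014 and -0.0015 over all genes, and all but Tuba1a in sub-polysomal RNA were above 0 under each scaling.

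For the other β-tubulins the test was not passed in either pool. Tubb5 had log2 changes of 0.084 and 0.19 in polysomal and sub-polysomal RNA (95% intervals -0.24 to 0.41 and -0.14 to 0.51), the latter 0.45 when scaled to Actb, and Tubb4b of -0.040 and -0.098, which turned to 0.060 and 0.16 when scaled to Actb, the polysomal one also to 0.057 without mock replicate A. Without METTL7A1 replicate E the polysomal change of Tubb5 was 0.0083. Tubb2a had log2 changes of 0.13 and -0.35 in polysomal and sub-polysomal RNA, and the latter (adjusted p 0.155, edgeR's quasi-likelihood test) passed with GC offsets (-0.64, adjusted p 0.0225), as did the sub-polysomal change of Tubb4b (-0.38, adjusted p 0.0396). The polysomal change of Tubb2a was 0.041 without METTL7A1 replicate E and 0.28 without mock replicate A. The sub-polysomal change of Tubb2a was -0.097 when scaled to Actb and -0.22 without mock replicate A. Over all alternatives these sub-polysomal adjusted p lay between 0.0225 and 0.741 for Tubb2a and between 0.0396 and 0.899 for Tubb4b. Actg1 fell in sub-polysomal RNA by 0.57 (SE 0.16, adjusted p 0.0125, edgeR's quasi-likelihood test), with all METTL7A1 libraries below all mock libraries. It did not pass when scaled to Actb (-0.29, adjusted p 0.205) or without METTL7A1 replicate F (-0.46, adjusted p 0.0696) or mock replicate B (-0.46, adjusted p 0.0534), with adjusted p from 0.00195 to 0.205 over all alternatives. In polysomal RNA the log2 change of Actg1 was -0.21 (adjusted p 0.385, edgeR's quasi-likelihood test), and the libraries overlapped. Actb had -0.099 in polysomal RNA (95% interval -0.44 to 0.24, adjusted p 0.722) and -0.26 in sub-polysomal RNA (95% interval -0.60 to 0.078, adjusted p 0.230, edgeR's quasi-likelihood test), where the libraries of the genotypes did not overlap. With Actb scaling the median over all genes was 0.26 in the sub-polysomal comparison. The share of risen among changed genes then was 83.1% in place of 53.7% in sub-polysomal RNA, and 71.4% in place of 53.9% in polysomal RNA.

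**Figure D4:**
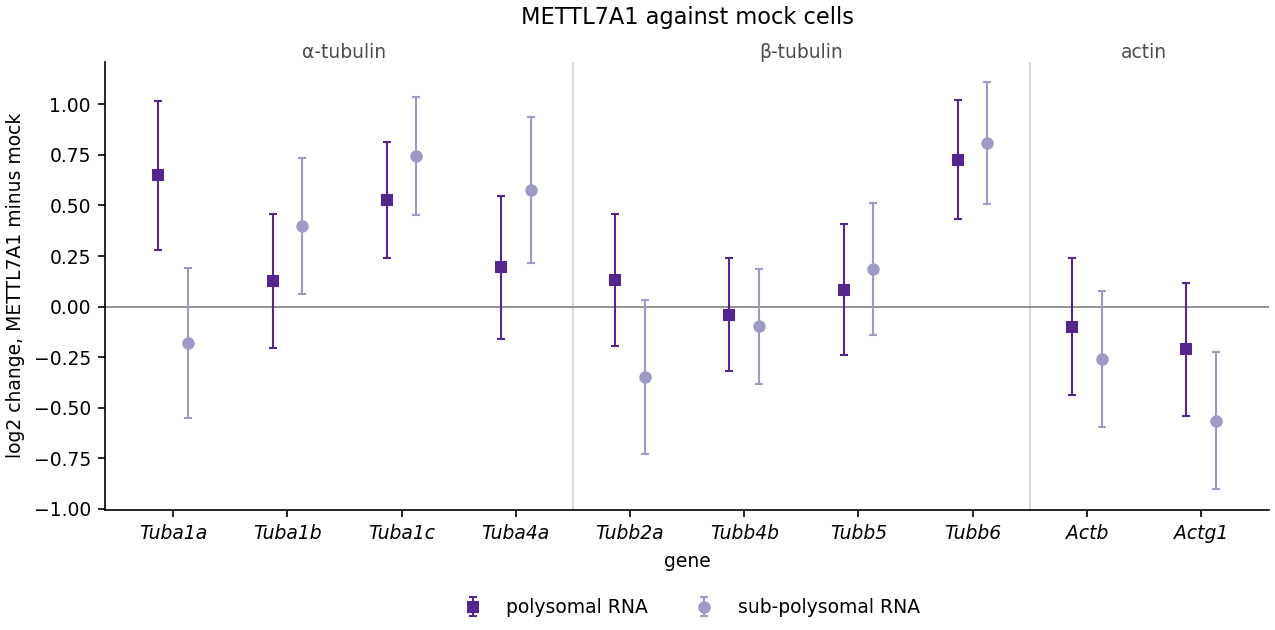
Log2 change of METTL7A1 against mock cells for each member in polysomal and sub-polysomal RNA, with 95% intervals from edgeR's fit and n = 3 libraries per group. Tubb6 and Tuba1c rose in both pools, by 0.53 to 0.81, and the intervals of Actb include 0 in both.

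The share of each isotype within its family, in counts per kb, does not depend on the scaling of libraries either. Its size has the same limit from shared windows as the ratios above. Tubb6 made up 19.7%, 19.1% and 18.3% of β-tubulin in the mock sub-polysomal libraries and 27.1%, 28.1% and 27.5% in METTL7A1 libraries. In polysomal RNA its share was 16.5%, 16.5% and 16.3% in mock and 22.8%, 23.7% and 24.8% in METTL7A1 cells. The genotypes were apart in both pools, by 8.54 and 7.34 percentage points (exact permutation p 0.1 in each). Tubb5 took 60.3% ± 1.22 and 66.4% ± 0.398 of β-tubulin in the mock sub-polysomal and polysomal groups, and 56.8% ± 0.804 and 61.5% ± 0.989 in the METTL7A1 groups (SD, n = 3), lower in METTL7A1 cells in each pool without overlap. Tubb4b was lower in METTL7A1 cells as well, 14.2% ± 0.395 against 18.4% ± 1.94 in sub-polysomal and 13.4% ± 0.0604 against 15.7% ± 0.181 in polysomal RNA. Tubb2a averaged 2.34% in mock sub-polysomal RNA, higher without overlap than the 1.45% in mock polysomal and the 1.47% in METTL7A1 sub-polysomal RNA, and 1.38% in METTL7A1 polysomal RNA. Of α-tubulin, Tuba1c took 22.7% ± 0.657 and 28.6% ± 1.20 in the mock pools and 28.1% ± 1.57 and 32.9% ± 1.26 in the METTL7A1 pools, so that it was higher in the polysomal pool and in METTL7A1 cells, without overlap in any of these comparisons. The share of Tuba1a was 17.8% ± 3.79 and 11.1% ± 0.285 in the mock pools and 11.7% ± 0.604 and 13.9% ± 0.412 in the METTL7A1 pools, lower in polysomal than in sub-polysomal RNA of mock cells and higher in that of METTL7A1 cells. Tuba1b, the largest α-tubulin share, averaged 41.9%, 42.2% and 41.0% in the first groups and 36.9% in METTL7A1 polysomal RNA, and Tuba4a averaged between 16.4% and 19.1%, with the mock sub-polysomal library A at 11.7%. Actb made up 94.2% ± 0.298 and 91.3% ± 0.827 of cytoplasmic actin in the mock pools and 95.2% ± 0.826 and 91.9% ± 0.405 in the METTL7A1 pools. Of the 36 comparisons of shares between pools or genotypes, 28 had no overlap between the libraries (exact permutation p 0.1 in each), 7 of 9 in each comparison. For comparison, the CPM of 51.9% and 66.8% of all genes did not overlap between the mock and the METTL7A1 pools, and that of 36.6% and 43.9% between genotypes in polysomal and sub-polysomal RNA. The CPM of single genes is an unlike measure to a share within a library, and a background of shares was not computed. Shares within a family add up to its whole, so they are not independent of each other. Summed tubulin over summed actin, also computed after the values had been seen, was 0.838, 0.718 and 0.699 in mock and 1.19, 1.22 and 1.03 in METTL7A1 sub-polysomal RNA, and 0.874, 0.824 and 0.909 in mock and 1.07, 1.10 and 1.12 in METTL7A1 polysomal RNA. All METTL7A1 libraries were above all mock libraries in both pools (exact permutation p 0.1 in each). GC offsets were not applied to these ratios. In sub-polysomal RNA the offsets lowered the changes between genotypes of Tubb6, Tuba1c, Tuba1b, Tubb4b and Tubb2a. The change of Actb went from -0.26 to -0.27 and that of Actg1 from -0.57 to -0.67.

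**Figure D5:**
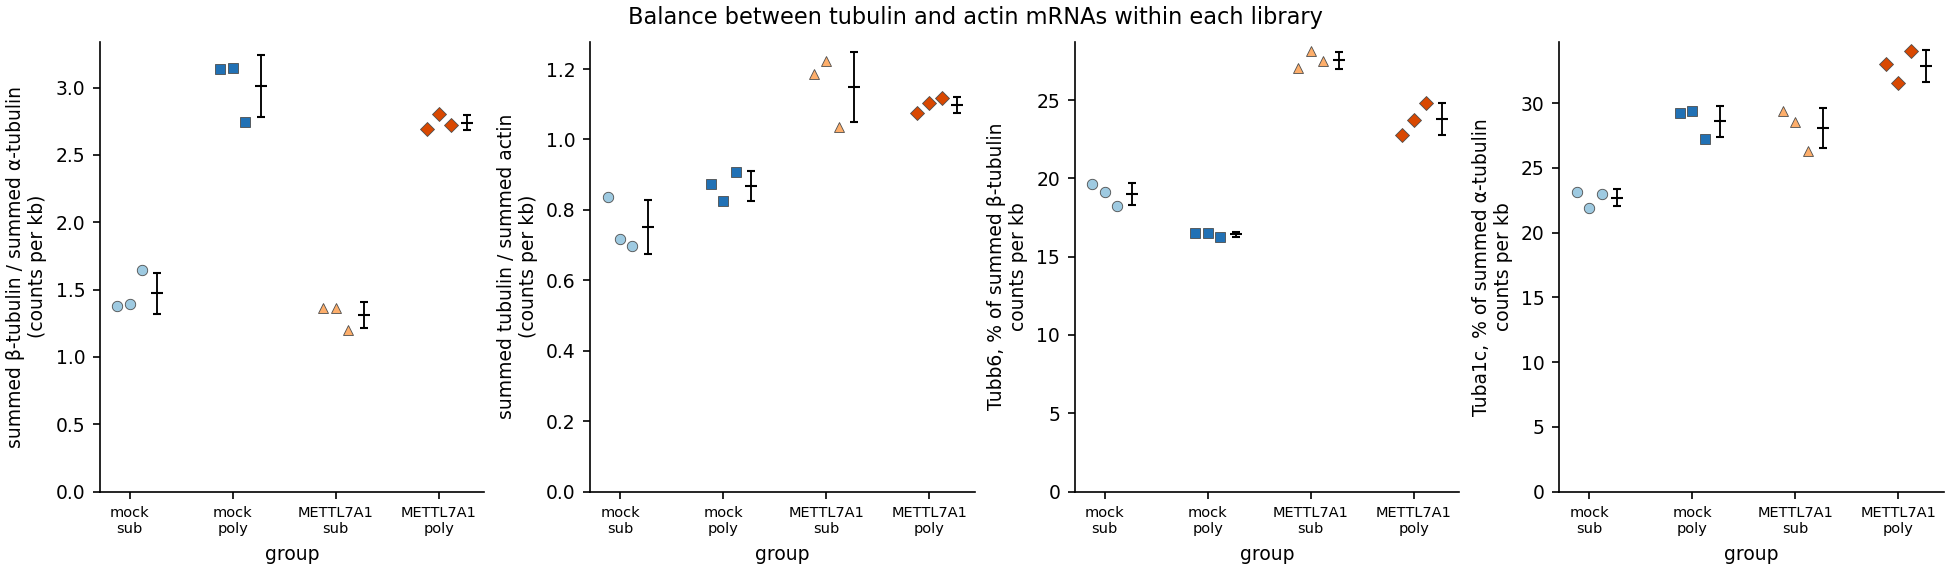
From left to right, summed β-tubulin over summed α-tubulin, summed tubulin over summed actin, and the shares of Tubb6 in β-tubulin and of Tuba1c in α-tubulin, all in counts per kb, with 1 point per library and the mean and SD of each group of 3. The first ratio separates the pools, and the other panels show higher values in METTL7A1 than in mock cells of the same pool.

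The shift to polysomes, the log2 change between pools in METTL7A1 cells minus that in mock cells, tested whether the distribution over the gradient differed between genotypes. Of the 10 members 0 were called and 0 changed, where both rules took 0.0% of the 12224 genes. With edgeR's quasi-likelihood test, 1911 genes had an unadjusted p below 0.05, and the smallest adjusted p was 0.0939. DESeq2 called 1 gene and found 329 at an adjusted p below 0.05 with no limit on the change, and limma-voom found 0 by either rule. Among the members, Tuba1a had the largest shift, 0.83 (SE 0.25, 95% interval 0.31 to 1.35, unadjusted p 0.00364, adjusted p 0.138, edgeR's quasi-likelihood test), and 89.5% of the tested genes had a smaller one. With DESeq2 the adjusted p of Tuba1a was 0.0466, and over all alternatives it lay between 0.0466 and 0.469, with shifts from 0.67 to 1.11, the largest without mock replicate C. The difference between its fall in mock cells and its smaller change in METTL7A1 cells was thus not shown by the reported test. The other members had no unadjusted p below 0.05. Actb had a shift of 0.16 (95% interval -0.32 to 0.64), Actg1 of 0.35 and Tubb2a of 0.48. Tubb4b, Tubb5 and Tubb6 were at 0.059, -0.10 and -0.082, with signs that changed when single mock replicates were left out (Tubb4b to -0.012 without C, Tubb5 to 0.012 and Tubb6 to 0.014 without A), and Tubb4b had -0.10 when scaled to Actb and Tubb6 0.22 with GC offsets. Tuba1b, Tuba1c and Tuba4a had shifts of -0.27, -0.22 and -0.38, of which Tuba1c turned to 0.070 with GC offsets. These sizes also depended on single replicates and settings, as Tuba1b had -0.034 with GC offsets and -0.47 without mock replicate B, and Tuba4a -0.15 without mock replicate A. The shift of Actg1 lay between 0.14 without mock replicate B and 0.58 without A, and that of Actb between 0.051 and 0.32 without the same replicates. Scaling to Actb moved the median shift of all genes to -0.17.

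For the gene lists described next, all tested genes give the background. Between the mock pools 23.3% of them rose and 23.7% fell (median log2 change 0.054), and between the METTL7A1 pools 30.0% and 29.3% (median 0.058). Between genotypes it was 9.69% and 8.28% in polysomal RNA (median -0.014) and 16.8% and 14.5% in sub-polysomal RNA (median -0.0015). Scaling to Actb shifted the median of all genes, as given above. With it, 17.0% rose and 23.5% fell between the mock pools, 17.5% and 34.6% between the METTL7A1 pools, 10.1% and 4.05% between genotypes in polysomal RNA, and 26.9% and 5.46% in sub-polysomal RNA, and list counts under this scaling are to be read beside these. Of 12 other tubulin genes listed, 6 passed the filter, and Tuba3a, Tuba3b, Tubal3 and Tubb1 had 0 counts in all libraries. Of the 6, 1 rose and 1 fell between the mock pools and 0 and 1 between the METTL7A1 pools (medians 0.16 and 0.059, the latter -0.19 when scaled to Actb). Between genotypes 1 rose and 2 fell in polysomal RNA (median -0.52), and 1 rose and 3 fell in the other pool (median -0.48, and -0.22 with 2 fallen when scaled to Actb). In that other pool 0 rose with upper-quartile factors or DESeq2, and between the mock pools 0 rose when scaled to Actb. Tubb2b, which holds 45.6% of the Tubb2a windows, was counted 12 to 69 times per library in mock cells and 0 to 11 times in METTL7A1 cells. It was called lower in METTL7A1 cells, by a log2 of -2.56 in polysomal (SE 0.36, adjusted p 6.42e-05) and -3.05 in sub-polysomal RNA (SE 0.51, adjusted p 0.000235, edgeR's quasi-likelihood test). Tubg2, one of the γ-tubulins that nucleate microtubules, was called in polysomal RNA (-1.85, adjusted p 0.000325) and fell in sub-polysomal RNA (-1.45, adjusted p 0.00173, edgeR's quasi-likelihood test). The more abundant Tubg1 had -0.32 and 0.0019 in these comparisons, neither past the test, and Tube1, ε-tubulin, had -0.72 and -0.97. The latter passed (adjusted p 0.0281, edgeR's quasi-likelihood test) but not without mock replicate A (-0.78) or B (-0.84), METTL7A1 replicate E (-0.85) or F (-0.96) or the mock sub-polysomal library A (-0.78), nor with GC offsets (-0.72), limma-voom (-0.86) or Actb scaling (-0.71).

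The factors of tubulin mRNA autoregulation (Ttc5, Scaper and the CCR4-NOT subunits) were all tested, and of 13 genes 6 rose and 1 fell between the pools of mock cells, polysomal against sub-polysomal, with a median log2 change of 0.39, and 7 rose and 1 fell in METTL7A1 cells, with a median of 0.43. The deadenylase Cnot7 was the one that fell, with log2 changes of -0.98 and -0.73, while its paralogue Cnot8 rose by 0.63 and 0.88 (adjusted p 0.0038 and 0.00017, edgeR's quasi-likelihood test), and Cnot9 had -0.026 and -0.23. Between genotypes 0 rose in either pool, with 1 fallen in polysomal RNA (median -0.25) and 3 fallen in sub-polysomal RNA (median -0.30). When scaled to Actb, 3 rose and 1 fell between the mock pools (median 0.32), 2 rose and 2 fell between the METTL7A1 pools (median 0.19), and 1 fell in sub-polysomal RNA of METTL7A1 against mock cells (median -0.040). Of 20 tubulin folding genes (cofactors, prefoldin and the CCT chaperonin), 8 rose and 6 fell between the mock pools and 9 rose and 8 fell between the METTL7A1 pools (medians -0.0066 and -0.018, or 0.033 and 0.046 with upper-quartile factors, and -0.094 and -0.25 when scaled to Actb). Directions within the list differed, as Cct5 rose by 0.88 and 1.42 in mock and METTL7A1 cells while the cofactor Tbca (-1.56 and -1.52) and the prefoldin subunit Pfdn1 (-1.32 and -2.02) fell. METTL7A1 against mock cells gave 1 risen and 0 fallen folding genes in polysomal RNA (median 0.15) and 5 and 5 in sub-polysomal RNA (median -0.083, and 0.17 with 7 risen and 1 fallen when scaled to Actb), where Cct5 fell by 0.66 (not when scaled to Actb, -0.40) and Pfdn1 rose by 1.02.

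Microtubule-binding proteins (17 tested) had 8 risen and 0 fallen genes between the mock pools (median 0.29) and 9 and 1 between the METTL7A1 pools (median 0.50, and 0.25 when scaled to Actb). Between genotypes 2 rose and 4 fell in polysomal RNA (median -0.082, and 0.013 when scaled to Actb), and 3 rose and 6 fell in sub-polysomal RNA (median -0.39), where Actb scaling gave 4 risen and 1 fallen (median -0.13). Katna1, a subunit of the severing enzyme katanin, fell in METTL7A1 cells (log2 change -0.65 in the polysomal pool, -1.37 in the sub-polysomal pool). Stmn1, which binds tubulin dimers, fell there too, with -0.47 and -0.77 (adjusted p 0.0324 and 0.00196, edgeR's quasi-likelihood test), the first of which did not pass without mock replicate B (-0.39) or C (-0.43), METTL7A1 replicate D (-0.42) or E (-0.41), and neither of which passed when scaled to Actb (-0.37 and -0.52). The plus-end protein Mapre1 fell by 0.49 in sub-polysomal RNA, but did not pass without METTL7A1 replicate D (-0.47) or E (-0.48), without the mock sub-polysomal library A (-0.37), with GC offsets (-0.23) or scaled to Actb (-0.25). Of 10 tested genes of tubulin modification, 3 rose and 3 fell between the mock pools and 1 and 4 between the METTL7A1 pools (medians -0.13 and -0.33, or -0.21 and -0.57 when scaled to Actb), with Svbp, the partner of the detyrosinating vasohibins, at -3.19 and -3.33. The deacetylase Sirt2 had 0.22 and -0.30 between the pools, neither past the test. In METTL7A1 against mock cells 1 rose and 1 fell in either pool (medians -0.21 in polysomal RNA and 0.11 in sub-polysomal RNA), and 3 rose in sub-polysomal RNA when scaled to Actb (median 0.38). Ttll12 rose by 0.53 in the polysomal pool and by 1.09 in the other pool, the former not without METTL7A1 replicate E (0.42) or mock replicate B (0.41).

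On the actin side, 16 genes of monomer binding and turnover were tested, with 5 risen and 3 fallen between the mock pools and 6 and 3 between the METTL7A1 pools (median 0.29 in each). Scaled to Actb, 4 rose and 3 fell between the mock pools (median 0.20), and 5 rose and 4 fell between the METTL7A1 pools (median 0.053). The monomer-binding Tmsb10 had log2 changes of -3.06 and -3.26 between pools, profilin Pfn1 of -0.38 and -0.94, and cofilin Cfl1 of 0.095 and -0.18. In METTL7A1 against mock cells 1 rose and 2 fell in the polysomal pool (median -0.077) and 2 rose and 6 fell in the sub-polysomal pool (median -0.16), and scaling to Actb turned these medians to 0.0057 and 0.076, with 1 risen and 1 fallen in the former and 3 and 0 in the latter. Upper-quartile factors gave 1 risen and 4 fallen in the polysomal pool (median -0.12), where 8.19% of all genes rose and 10.2% fell. Of 17 genes of the Arp2/3 complex and the formins, which nucleate filaments, 6 rose and 5 fell between the mock pools and 9 and 5 between the METTL7A1 pools (medians 0.083, or -0.011 when scaled to Actb, and 0.41). Between genotypes 1 rose and 0 fell in the polysomal pool (median -0.059, or 0.038 when scaled to Actb) and 1 rose and 4 fell in the sub-polysomal pool (median -0.26, with 3 risen, 2 fallen and a median of -0.015 when scaled to Actb). Actb scaling also left 4 risen genes between the mock pools and 6 between the METTL7A1 pools (median 0.18). Upper-quartile factors gave 0 risen and 4 fallen in the sub-polysomal pool between genotypes (median -0.34), where 14.4% of all genes rose and 18% fell. The Arp2/3 subunit Arpc1b fell, with log2 changes of -2.10 and -1.30 between pools and -1.20 in sub-polysomal RNA of METTL7A1 against mock cells, Arpc3 rose by 0.49 and 0.61 between pools, and Arpc2 had 0.091 in mock cells and rose by 0.51 in METTL7A1 cells. Arpc2 also fell in sub-polysomal RNA of METTL7A1 against mock cells (-0.57), but not with GC offsets (-0.36), scaled to Actb (-0.33) or without METTL7A1 replicate D (-0.40). Filament bundling and stress fibre genes (25 tested) had 13 risen and 2 fallen between the mock pools (median 0.46) and 14 and 4 between the METTL7A1 pools (median 0.57, and 0.33 when scaled to Actb). Of these, 2 rose and 3 fell in the polysomal pool of METTL7A1 against mock cells (median -0.019) and 3 rose and 7 fell in the sub-polysomal pool (median -0.15). Scaled to Actb, 3 rose and 0 fell in the polysomal pool (median 0.094), 8 rose and 2 fell in the sub-polysomal pool (median 0.085), and 8 rose and 2 fell between the mock pools. Lcp1, the bundling protein L-plastin, was called higher, counted 21 to 184 times per library in mock cells and 153 to 1000 times in METTL7A1 cells. Its log2 change was 2.45 in polysomal (SE 0.15, adjusted p 3.87e-09) and 2.08 in sub-polysomal RNA (SE 0.18, adjusted p 2.24e-07, edgeR's quasi-likelihood test). The abundant Tagln2 rose by 0.94 in sub-polysomal RNA, Myl6 rose there by 0.59 (not without METTL7A1 replicate E, 0.55) and Tpm4 had -0.32. Of 8 tested genes of the SRF pathway, 1 rose and 0 fell between the mock pools and 3 and 1 between the METTL7A1 pools (medians 0.18 and 0.28), the latter 0 and 1 when scaled to Actb (median 0.037). In METTL7A1 against mock cells 2 rose and 0 fell in polysomal RNA (median 0.22), and 4 rose and 1 fell in sub-polysomal RNA (median 0.49), while Ankrd1 (0.16 and -0.21) did not pass. Actb scaling gave 4 risen and 0 fallen genes in sub-polysomal RNA (median 0.75). Among the risen genes were Ccn2 (0.65 and 0.66) and Ccn1 (0.56 and 0.56), the latter not without METTL7A1 replicate D in either pool (0.52 and 0.43) nor, in polysomal RNA, without METTL7A1 replicate E (0.58) or mock replicate B (0.59).

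Transcripts of the mitochondrial genome and the other pool markers give the scale of these changes. Of 17 listed, 11 were tested, and 2 rose and 9 fell in polysomal RNA of either genotype, with medians of -2.33 in mock and -2.18 in METTL7A1 cells, beside log2 changes from -1.05 to 1.08 for the members. The most abundant per kb, mt-Cytb, mt-Nd1 and mt-Co1, fell, with log2 changes of -2.75, -4.36 and -2.33 in mock cells. Between genotypes 1 rose and 0 fell in polysomal RNA (median -0.13), where 0 rose with RLE factors, upper-quartile factors or TMM factors within each pool, and 1 rose and 2 fell in sub-polysomal RNA (median -0.058, and 0.18 with 2 risen and 1 fallen when scaled to Actb), where 0 rose with upper-quartile factors.

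Over the 12 libraries, the genes most like Actb in log2 CPM, among 8158 genes with a mean of at least 10 CPM, were Dhx8 (Pearson r 0.930), Git2 (0.926), Fancl (0.916), Secisbp2 (0.909) and Scfd1 (0.907). The genes most like the summed tubulin members were Samm50 (Pearson r 0.975), Rrp1b (0.973), Map7d1 (0.970), Rcc1 (0.970) and Ndrg1 (0.968). The 12 points fall into 4 groups and share pool, genotype and scaling, so these values describe likeness in these libraries, with no p. Each of the 10 genes had positive log2 changes to the polysomal pool in both genotypes, from 0.10 for Scfd1 in mock cells to 0.90 for Map7d1 in mock cells. They were chosen by likeness over libraries of both pools, so this shared direction is not a separate result.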

How the data were processed

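The authors trimmed the paired reads, aligned them to GRCm38/mm10 with STAR 2.5.3a and assigned them to genes with featureCounts, and the deposited values are raw counts per gene for the 12 libraries. The strand setting and the handling of reads matching several genes are not given in the sources used here. The deposited gene length in bases, a column of the count file, was used as exon length for values per kb. A gene entered the tests with 1 CPM or more in 3 libraries or more. After TMM scaling, edgeR 4.0.16 (R 4.3.3) fitted all 12 libraries together with a mean for each group, and edgeR's quasi-likelihood test gave the p-values, adjusted by the Benjamini-Hochberg method over 12224 genes. For shares and ratios an exact permutation test, two-sided, was used (scipy 1.17.1). The scripts were tested on simulated data with planted changes.

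Named were Mettl7a1, the 10 members, and from each of 11 gene lists the genes called between genotypes or in the shift, otherwise filled up by the 3 most abundant per kb, and the 5 genes most like Actb and most like summed tubulin. Stk16 was added after its overlap was seen. The members and lists were chosen with earlier results of these data known. Total library depths lay between 1817520 and 6966156 counts. Intervals cover the spread fitted between libraries.

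Alternatives were DESeq2 1.42.0, limma-voom (limma 3.58.1), RLE and upper-quartile factors, TMM factors within each pool, scaling to Actb, GC offsets, other filters and thresholds, only the compared groups in the fit, the replicate letter as a block and leaving out each replicate. Chosen after seeing the data were leaving out the mock sub-polysomal library A, the ratios of summed members, and an adjusted p below 0.05 in DESeq2 and limma-voom for the shift. Coding sequences and windows were read from the GRCm38 genome with GENCODE vM21.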

Additional observations from a re-analysis of the deposited data

How the results depend on the processing

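Of 825 values of members and comparisons under alternatives, 766 kept their direction and side of the threshold, 24 no longer passed, 13 newly passed and 22 changed sign. With at least 10 counts in every library, so with fewer genes tested, 509 and 861 genes were called between the mock and the METTL7A1 pools, and 55 and 92 between genotypes in polysomal and sub-polysomal RNA. An adjusted p below 0.05 with no limit on the change took 5746, 7248, 2197 and 3834. For the shift, DESeq2 called 1 gene (329 at an adjusted p below 0.05, chosen after seeing the data), and no filter beyond 1 count gave 10; the cause was not tested. Scaled to Actb, 2 members rose between the pools of either genotype (17.0% and 17.5% of all genes) and 0 fell between genotypes in sub-polysomal RNA (5.46%), where GC offsets gave 3 fallen. In the mock pools 2 fell with DESeq2 and 2 without the mock sub-polysomal library A.

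Leaving out single replicates, called genes lay between 688 and 1125 (mock pools), 1221 and 1537 (METTL7A1 pools), 189 and 257 (polysomal RNA), 235 and 364 (sub-polysomal RNA) and 0 and 0 (shift). Members that rose lay between 3 and 4, 3 and 5, 1 and 3, and 2 and 3 in the first 4, and members that fell between 1 and 2, 1 and 2, 0 and 0, and 0 and 1. The number of shares without overlap lay between 28 and 30, and was 29 for raw counts. With fewer libraries this number can only stay or rise, so its range does not measure stability.

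These changed sign, for causes not tested, and none passed the test. With GC offsets Tuba1c had log2 changes of 0.0338 (mock pools), 0.103 (METTL7A1 pools) and 0.0696 (shift), and Tubb6 0.217 (shift). Tuba1c in the mock pools had 0.0337 with no filter and 0.0186 with upper-quartile factors. Tubb2a in the mock pools had -0.00465 with DESeq2, -0.000799 with RLE factors and -0.0537 scaled to Actb. Scaled to Actb, Tuba1a had 0.0692 between genotypes in sub-polysomal RNA, and Tubb4b 0.0604 in polysomal RNA, 0.161 in sub-polysomal RNA and -0.1 for the shift. Without the mock sub-polysomal library A, Actb had -0.0134 in the mock pools and Stk16 0.0202 for the shift. With single replicates left out, ranges crossed 0 in the mock pools for Actb (-0.0819 to 0.19), Tuba1c (-0.14 to 0.101) and Tubb2a (-0.0285 to 0.078), between genotypes in polysomal RNA for Tuba1b (-0.00158 to 0.233), Tubb4b (-0.111 to 0.0568) and Stk16 (-0.0205 to 0.456), and for the shift for Tubb4b (-0.012 to 0.22), Tubb5 (-0.215 to 0.0122), Tubb6 (-0.18 to 0.0144) and Stk16 (-0.202 to 0.0946).

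After subtracting group means, sub-polysomal and polysomal libraries of the same letter correlated with r of 0.107, -0.108, -0.292, 0.0377, 0.0189 and 0.0451 for A to F across genes, which are not independent. These values cannot settle whether the letters pair the pools, and the reported fit did not use the letters. With the letter as a replicate block, 816 and 1383 genes were called between the mock and METTL7A1 pools and 0 for the shift, and 4 and 5 members rose and 1 and 2 fell.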
